A study of Mus musculus with 20 samples.

Results

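Paternal pronuclei of Tet3-deleted zygotes that had been kept from replicating their DNA were compared with sperm, the gamete that brought the same genome into the egg. Each parent's genome has its own nucleus in the zygote, the pronucleus, until the first division. The comparison used 4 of the 20 libraries of the series, chosen by their titles: 2 of CKO paternal aphidicolin pronuclei and 2 of sperm. CKO zygotes came from females of 7 to 10 weeks with the genotype Zp3-Cre, f/-, in which Cre is driven by a promoter active in growing oocytes, so that the deletion is maternal. The sperm libraries are labelled WT and mock, and the eggs were inseminated with epididymal sperm of adult C57BL/6J males, so that the zygotes still carry a Tet3 allele from the father. Aphidicolin, an inhibitor of replicative DNA polymerases, was given at 3 µg/ml from 5 hours after fertilisation, and pronuclei were isolated by hand at 12 hours and frozen at 13 hours. The parents' pronuclei were told apart by size and by their distance from the second polar body. The assay was reduced representation bisulfite sequencing, in which MspI fragments rich in CpG are sequenced after bisulfite has converted unmethylated cytosines. A pronuclear library typically held about 20 pronuclei and had 21 cycles of PCR. Other groups of 2 libraries served as references: oocytes, WT (f/f) paternal aphidicolin, CKO paternal mock and WT paternal mock pronuclei, and the 8 libraries of maternal pronuclei. Whether libraries of the same group were made from different animals is not in the labels, so errors here cover the spread between libraries, which may be technical. The deletion of Tet3 cannot be read from CpG calls, and the genotype was taken from the labels.

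Sperm DNA is highly methylated outside CpG islands, and much of that methylation leaves the paternal genome before the first division. Tet3, supplied by the egg, oxidises 5-methylcytosine, and replication without maintenance dilutes it. New methylation can be laid down by the de novo methyltransferases of the egg. The zygotes compared here came from eggs without Tet3 and were treated to hold them before replication. Bisulfite sequencing reads 5-methylcytosine and 5-hydroxymethylcytosine alike.

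The promoters on which the results below turn include those of Map1b, a microtubule-associated protein of neurons, Psma5, an alpha subunit of the core proteasome, Ptger4, a receptor for prostaglandin E, and Rfx8, of the RFX family of DNA-binding proteins. Their 250 bases before the gene start are shown because they are CpG-rich, were unmethylated in sperm and stood higher in the pronuclei. Letters are from RefSeq (GRCm38.p6), 5′ to 3′ on the gene's strand. The mm9 positions come from matching the spacing of the CpGs to the positions in the deposited files. Capitals mark CpGs that were read in all 4 libraries.
Map1b, chr13:100286558-100286807 (mm9, minus strand): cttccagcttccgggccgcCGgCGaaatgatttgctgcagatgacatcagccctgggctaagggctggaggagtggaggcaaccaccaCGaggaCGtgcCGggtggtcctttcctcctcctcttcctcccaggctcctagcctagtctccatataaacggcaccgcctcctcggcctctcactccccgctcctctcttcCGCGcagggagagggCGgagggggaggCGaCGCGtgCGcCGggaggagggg
Psma5, chr3:108059594-108059843 (mm9, plus strand): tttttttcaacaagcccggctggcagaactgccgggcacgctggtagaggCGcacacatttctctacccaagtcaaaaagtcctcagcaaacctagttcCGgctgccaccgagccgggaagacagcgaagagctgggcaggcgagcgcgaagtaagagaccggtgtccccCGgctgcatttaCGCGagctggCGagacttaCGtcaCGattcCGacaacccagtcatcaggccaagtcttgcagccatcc
Ptger4, chr15:5194188-5194437 (mm9, minus strand): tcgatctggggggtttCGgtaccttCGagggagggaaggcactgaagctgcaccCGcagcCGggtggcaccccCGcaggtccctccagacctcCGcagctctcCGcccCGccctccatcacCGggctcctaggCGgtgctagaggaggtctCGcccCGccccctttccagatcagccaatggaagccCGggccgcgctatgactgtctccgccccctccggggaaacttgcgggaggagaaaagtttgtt
Rfx8, chr1:39777835-39778084 (mm9, minus strand): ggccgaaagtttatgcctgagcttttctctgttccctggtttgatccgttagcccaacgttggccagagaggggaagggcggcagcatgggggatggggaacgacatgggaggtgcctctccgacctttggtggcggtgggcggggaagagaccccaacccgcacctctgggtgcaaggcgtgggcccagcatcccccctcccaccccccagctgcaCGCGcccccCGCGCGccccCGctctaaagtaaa
Of the 19 CpGs in the Map1b stretch 13 were read in all 4 libraries, of the 19 in Psma5 9, of the 19 in Ptger4 13 and of the 16 in Rfx8 6.

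Members of the comparison were autosomal CpG positions with at least 5 reads in each of the 4 libraries, 638611 positions out of 3681520 seen in any library. They formed 126105 tiles of 100 bp and 85925 tiles of 1000 bp with at least 2 such positions. The median depth per position was 41 and 39 reads in sperm and 40 and 35 in CKO paternal aphidicolin, and the median 100-bp tile held 130 to 146 calls per library. Reads carry no molecular identifiers, so calls are not independent molecules, and limits given for a value of 0 cover counting error only. Sperm libraries differed by a median of 3.48 points over tiles with enough calls of both kinds, the CKO paternal aphidicolin libraries by 23.1 points. Library 1 of CKO paternal aphidicolin stood apart from library 2 at tiles where the gametes differ. Tiles methylated in oocytes only, 3228 in number, stood at 3.47% and 3.45% in sperm, at 10.8% in library 1 and at 5.59% in library 2. In the 17228 tiles methylated in sperm only, library 1 stood at 88.6% and library 2 at 95.5%. On the 1857 tiles methylated in oocytes only that had calls in all paternal libraries, CKO paternal mock stood at 11.7% and 5.03%. The WT paternal libraries stood between 3.61% and 5.08% there. Chromosome Y took 0.00597% of the calls of library 1 and 0.0127% of those of library 2. Its share was 0.0111% to 0.0117% in sperm, 0.00752% to 0.0219% in the other paternal pronuclei and at most 0.00297% in maternal pronuclei. Values are therefore given for each library, and the part of signal from the other parent in library 1 was not tested.

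Where both gametes are methylated, CKO paternal aphidicolin pronuclei stood at the level of sperm. The 15147 tiles at or above 75% in both sperm and both oocyte libraries stood at 96.6% and 96.7% in sperm and at 96.5% and 96.7% in CKO paternal aphidicolin. The groups overlapped, with a mean difference of -0.0988 points and the 4 differences between single libraries from -0.229 to 0.0318 (exact permutation test, two-sided, p = 0.667, 2 libraries against 2). With 2 libraries in each group this test cannot go below 0.33. On the 3712 of these tiles that had at least 10 calls in all 10 paternal libraries, sperm stood at 96.5% ± 0.0332, CKO paternal aphidicolin at 96.6% ± 0.0906, WT paternal aphidicolin at 94.0% ± 1.40, CKO paternal mock at 69.1% ± 0.329 and WT paternal mock at 54.4% ± 3.18 (SD, n = 2 each). Each CKO paternal aphidicolin library stood above each library of the other pronuclear groups. The difference from WT paternal aphidicolin was 2.61 points, with single differences of 1.55 to 3.66 (exact permutation test, two-sided, p = 0.33, 2 against 2).

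**Figure D1:**
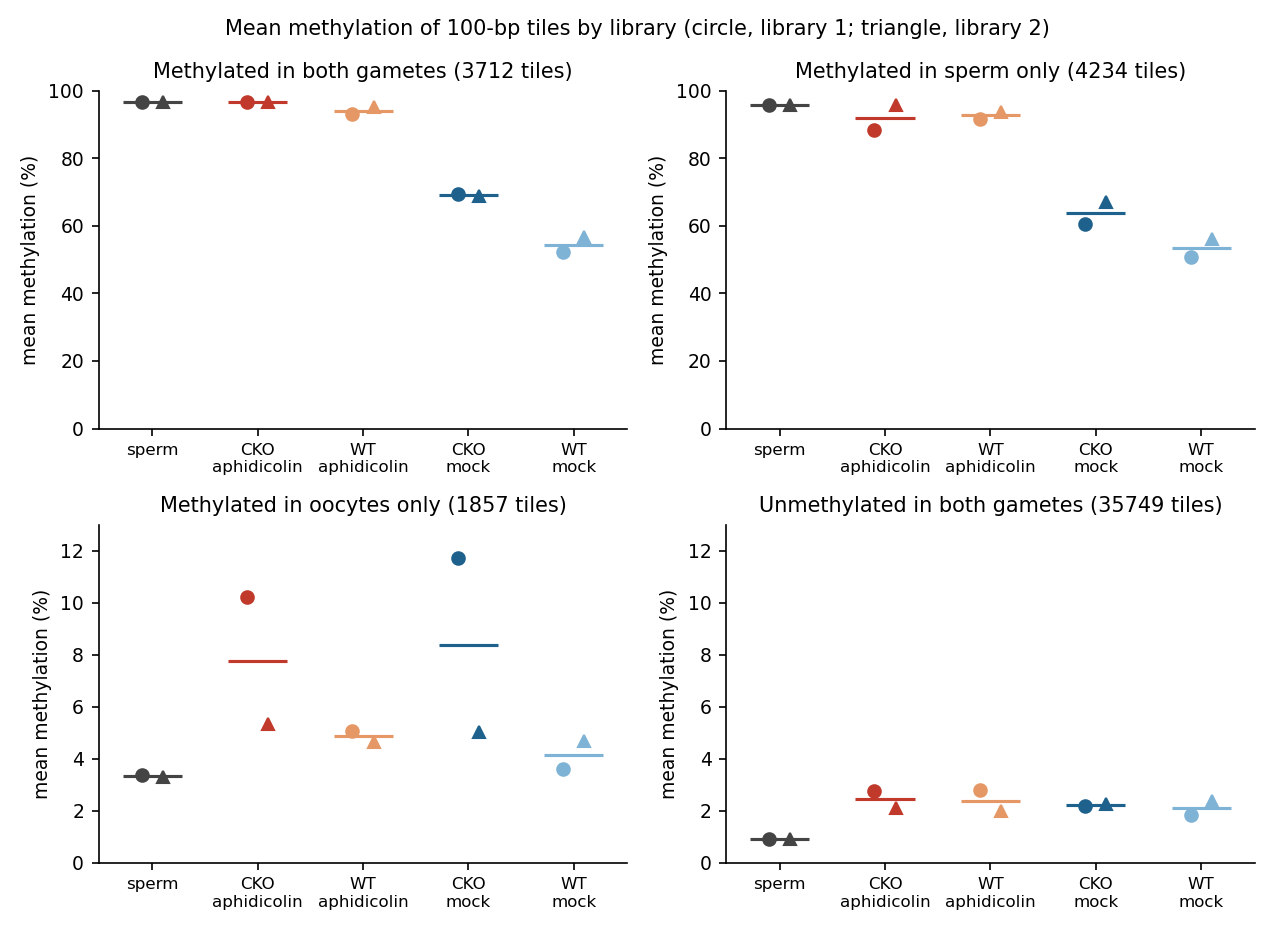
Mean methylation (%, y axis) of 100-bp tiles with at least 10 calls in all 10 paternal libraries, by group (x axis) and gamete class (panels); points are libraries and lines are group means, and the lower panels have a shorter axis. CKO paternal aphidicolin lies at the level of sperm in tiles methylated in both gametes, and library 1 (circle) departs from library 2 (triangle) in tiles that 1 gamete alone methylates.

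Tiles methylated in sperm only gave a different picture for each library. Sperm stood at 95.9% in each library there, library 1 differed from the sperm mean by -7.28 points and library 2 by -0.365 points. The mean difference was -3.82 points (-7.28 to -0.365), all 4 differences being of one sign (exact permutation p = 0.33, 2 against 2). In library 1 3.32% of these tiles read exactly 0 and 67.8% read exactly 100%. In library 2 these shares were 0.342% and 77.4%. All 42961 tiles methylated in sperm, whatever their state in oocytes, stood at 96.2% ± 0.0266 in sperm and 94.2% ± 2.52 in CKO paternal aphidicolin (SD, n = 2 each), a difference of -1.97 points (-3.77 to -0.174). The difference was -0.192 points without library 1 and -3.75 points without library 2. By autosome it was largest on chromosome 3, at -2.58 points over 1731 tiles, and smallest on chromosome 13, at -1.45 points over 1631 tiles, where library 2 stood at 96.1% against 95.8% in each sperm library. Both libraries stood below both sperm libraries on 14 of 19 autosomes.

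Few tiles methylated in both gametes read low, and those differed between the libraries. Library 1 had 98 of the 15147 tiles below 50% and library 2 had 82, where the class itself allows none in sperm. With tiles at exactly 50% counted, 323 were at or below 50% in library 1, and these read 93.4% in library 2, against 96.7% for all tiles of the class. Of them 5.88% were at or below 50% in library 2, against 1.87% of the class. Choosing in library 2 gave 284 tiles that read 93.0% in library 1. At single tiles the pronuclear libraries were more often all or none than sperm. In tiles methylated in both gametes 82.2% and 80.6% read exactly 100% in CKO paternal aphidicolin and 14.9% and 16.7% in sperm. In tiles unmethylated in both gametes 83.0% and 86.6% read exactly 0, against 57.7% and 58.7% in sperm. A library from about 20 pronuclei holds few copies of a site, and the part of that number in these shares was not tested.

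Tiles at or below the cut of 25% in both gametes stood higher in the pronuclei. The 60782 tiles at or below 25% in both sperm and both oocyte libraries stood at 0.978% and 0.986% in sperm and at 2.95% and 2.27% in CKO paternal aphidicolin. The groups did not overlap, and the mean difference was 1.63 points (1.29 to 1.98, exact permutation p = 0.33, 2 against 2). The cut was made on these same sperm libraries, which holds their level low. Over all 75829 tiles unmethylated in sperm, whatever their state in oocytes, the difference was 1.86 points. It was 1.79 points with the class taken from 1 sperm library and the level from the other. Oocytes stood at 0.923% and 0.975% in the 60782 tiles as well, near the level of sperm. Mitochondrial positions read 0.168% and 0.194% methylated in the 2 CKO paternal aphidicolin libraries, below the level of these tiles. In sperm they read 15.2% and 1.16%, on 1159 and 1381 calls only. The part of incomplete conversion in the difference was not tested. In tiles unmethylated in both gametes, both CKO paternal aphidicolin libraries stood above both sperm libraries on all 19 autosomes. The difference ranged from 1.14 points on chromosome 19 to 2.17 points on chromosome 8. On the 35749 of these tiles with calls in all paternal libraries, CKO paternal aphidicolin stood at 2.44% ± 0.480, WT paternal aphidicolin at 2.39% ± 0.581, CKO paternal mock at 2.22% ± 0.0307 and WT paternal mock at 2.11% ± 0.377, and sperm at 0.902% ± 0.00332 (SD, n = 2 each). The 4 pronuclear groups overlapped.

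**Figure D2:**
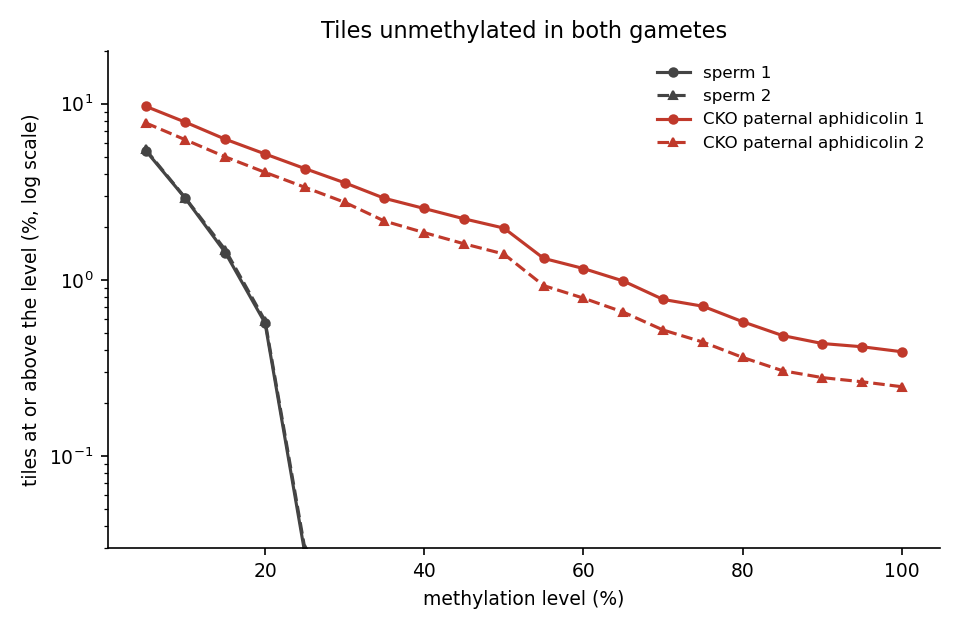
Share of the 60782 tiles unmethylated in both gametes (y axis, %, log scale) at or above a methylation level (x axis, %), by library. The class holds sperm at or below 25%; in CKO paternal aphidicolin 1.97% and 1.40% of the tiles are at or above 50% and 0.390% and 0.247% are at 100%.

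The difference from sperm came with a tail of highly methylated tiles, which the class itself does not allow in sperm. In library 1 932 of the 60782 tiles were above 50% and in library 2 653, while the median tile read 0 in both. The median tile was 0 in sperm too, where 57.7% and 58.7% of the tiles read exactly 0. A library holds few copies of a site, so these counts alone cannot tell an even rise from a rise at some tiles. At or above 25% stood 4.28% of the tiles in library 1 and 3.35% in library 2. The difference in points was smaller in tiles with more CpG positions read, and so was the level of sperm. Relative to that level the difference was larger at 12 or more positions than at 2. Tiles with 2 positions stood at 2.02% and 2.01% in sperm and 4.50% and 3.77% in CKO paternal aphidicolin. Tiles with 12 or more positions stood at 0.234% and 0.251% in sperm and 1.41% and 0.935% in CKO paternal aphidicolin. The difference was 2.12 points (1.75 to 2.49) over 12886 tiles in the first and 0.932 points (0.684 to 1.18) over 5062 tiles in the second, each with an exact permutation p of 0.33 (2 against 2). The share of tiles in which both libraries stood at least 25 points above both sperm libraries was 1.47% at 2 positions and 0.316% at 12 or more.

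**Figure D3:**
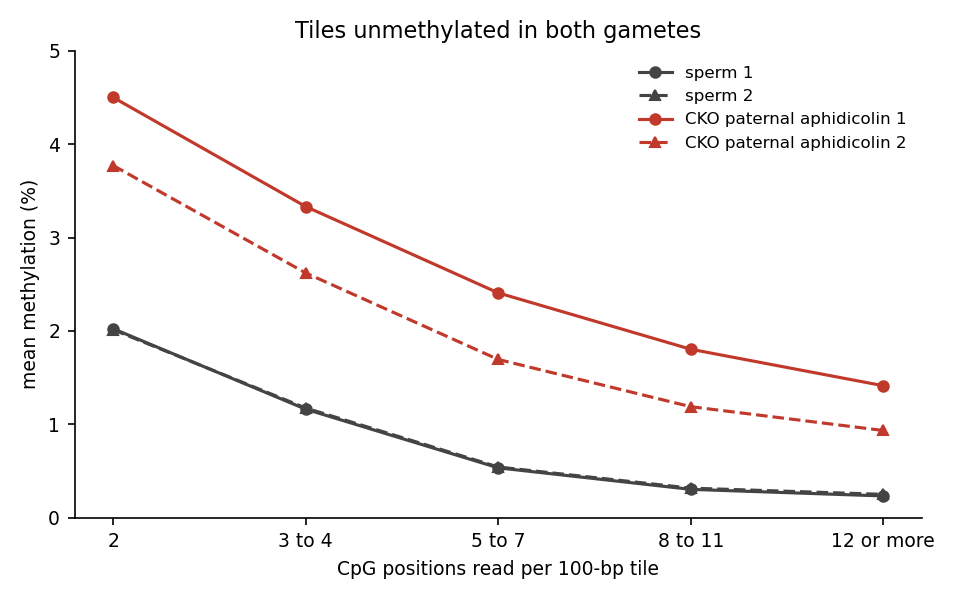
Mean methylation (%, y axis) of 100-bp tiles unmethylated in both gametes by the number of CpG positions read (x axis), for each library. Both CKO paternal aphidicolin libraries lie above both sperm libraries in each of the 5 classes, and all 4 lines go down from 2 positions to 12 or more.

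Tiles chosen as high in 1 library stood higher, as a mean, in libraries that had no part in choosing them. Of 56674 tiles at or below 5% in both sperm libraries and unmethylated in oocytes, 792 were at or above 50% in library 1. These read 23.3% in library 2, against 1.56% for all eligible tiles. Of them 35.5% were at or above 25% in library 2, against 2.18% of the eligible tiles. Choosing in library 2 gave 489 tiles that read 34.2% in library 1, where eligible tiles read 2.27%, and 53.0% of them were at or above 25%, against 3.22%. The tiles chosen in library 1 also read 36.2% and 25.1% in WT paternal aphidicolin, 26.1% and 27.8% in CKO paternal mock and 20.2% and 30.6% in WT paternal mock. Eligible tiles stood between 1.51% and 2.45% in these 6 libraries.

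Maternal pronuclei read low at those of the chosen tiles that were low in oocytes too. Where both oocyte libraries were also at or below 5%, tiles chosen in library 1 read 2.73% and 1.36% in CKO maternal aphidicolin (429 tiles) and 3.24% and 2.01% in CKO maternal mock (582 tiles). They read 1.29% and 0.950% in WT maternal aphidicolin (404 tiles) and 0.777% and 1.03% in WT maternal mock (565 tiles). Eligible tiles stood between 0.511% and 1.00% in these 8 libraries, in each below the chosen tiles. Each of the 8 maternal values lay below each of the 7 paternal ones, with no overlap. The tiles were chosen as high in a paternal library, and the maternal values alone were limited to tiles low in oocytes. This order is therefore set in part by the choice of tiles. Tiles chosen in library 2 gave the same order, with 0.927% to 3.56% in maternal and 26.8% to 40.6% in paternal libraries. As means, the chosen tiles thus stood above all eligible tiles in paternal pronuclei of both genotypes and both treatments. Maternal pronuclei of the same genotypes and treatments stood at most at 3.56%, on tiles also low in oocytes. The share of single tiles that read high was taken only in the CKO paternal aphidicolin libraries.

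**Figure D4:**
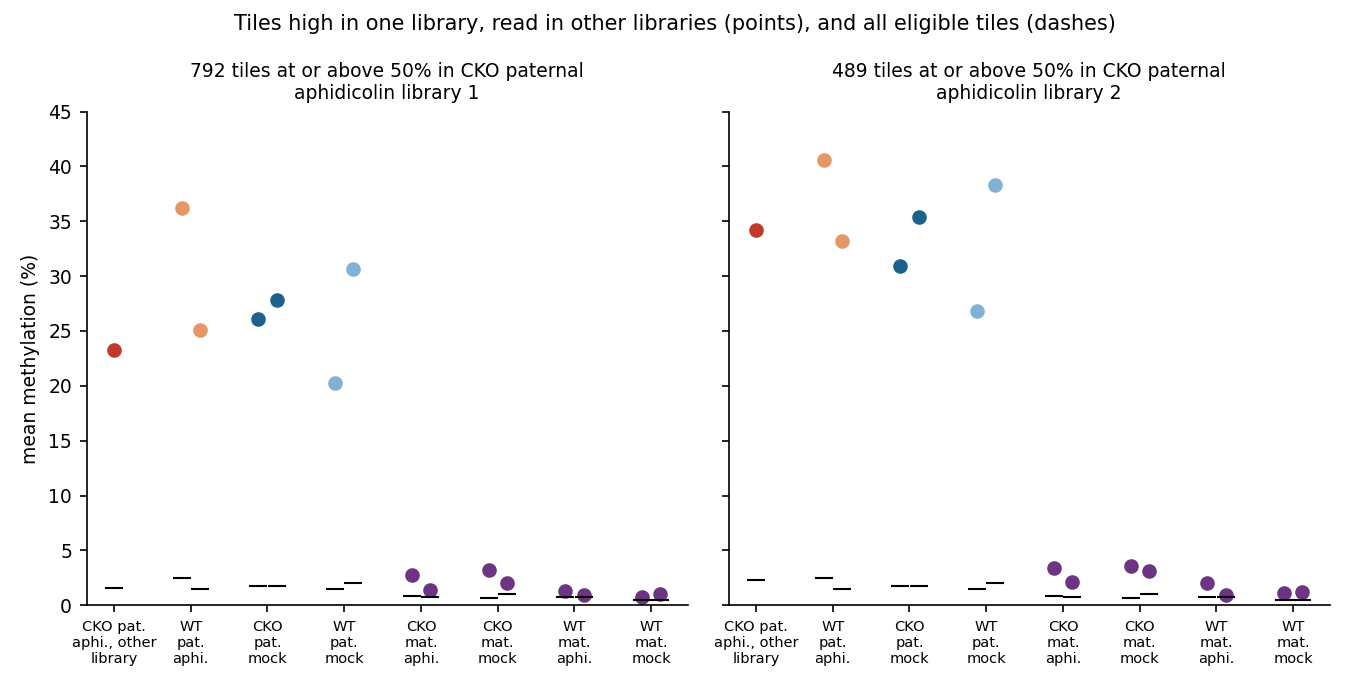
Mean methylation (%, y axis) of tiles at or above 50% in 1 CKO paternal aphidicolin library, read in the other libraries (points, by group on the x axis), beside all eligible tiles (dashes); maternal points use tiles that are also at or below 5% in both oocyte libraries. Paternal points lie between 20.2% and 40.6% and maternal points between 0.777% and 3.56%.

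Positions chosen as high on 1 strand stood higher, as a mean, at the adjoining position, taken as the other strand of the CpG. Each position was paired with the next base where both were read in all 4 libraries. In CGCG runs some pairs therefore join 2 CpGs, with the strands swapped, and their share was not taken. The other strand was read in the same libraries that made the choice, and the share of CpGs high on both strands was not taken. In both sperm libraries 40636 pairs were at or below 5% at both positions. Of these, 199 were at or above 25% at the first position (plus) in both CKO paternal aphidicolin libraries. Their second position (minus) read 39.8% and 40.7% there, and 0.213% and 0.284% in sperm. All eligible pairs read 1.98% and 1.32% at that position in CKO paternal aphidicolin. The 233 chosen on the minus strand read 43.3% and 34.9% on the plus strand.

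Each tile was then tested on its counts of calls, with a quasi-binomial model and Benjamini-Hochberg adjustment. A call needed a group difference of 10 points or more besides an adjusted p under 0.05. Of 126105 tiles of 100 bp 42 rose (0.0333%) and 0 were called lower (0%). At an unadjusted p under 0.05 with the same minimum difference 1558 were higher and 218 lower, and limma on arcsine square roots of the 4 libraries called 990 higher and 638 lower, but none of the 38 regions and single tiles drawn from the 42 (lowest adjusted p = 0.0540). Tiles in which both libraries lay at least 25 points beyond both sperm libraries numbered 1262 higher (1%) and 617 lower (0.489%), as a count with no test. In simulated data the quasi-binomial test recovered fewer falls than rises, and no falls at all in 100-bp tiles, so the low counts of lower tiles do not show that losses were absent. Most simulated rises in 100-bp tiles were missed too. Recovered were 0 of 31 at 20 points, 1 of 26 at 40, 6 of 34 at 60 and 3 of 33 at 75. The simulation gave sperm the same spread as the pronuclei in each tile. The real sperm libraries differed far less, by a median of 3.48 points against 23.1 in CKO paternal aphidicolin. Recovery in the real data may therefore differ from these shares, and the count of 42 was not taken as the extent of the rises. The 42 tiles stood at medians of 0.154% and 0.202% in sperm and 78.5% and 73.9% in CKO paternal aphidicolin. In the 6 other paternal pronuclear libraries their medians lay between 45.3% and 70.0%, and in the 8 maternal ones at or below 2.92%. In 1 of the 42 the groups overlapped. Of the 41 covered in oocytes 35 were unmethylated there (85.4%) and 3 methylated (7.32%), against 92.7% and 3.85% of all tiles at or under 5% in sperm. Calls depended on single libraries: 2 tiles were called without sperm replicate 1, 2 without sperm replicate 2 and 147 without CKO paternal aphidicolin replicate 2. With the spread taken from the 4 libraries alone 0 were called, and with the dispersion of every covered group 16.

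Only 2 regions held at least 2 called tiles less than 500 bp apart. At chr8:106864901-106865100 (mm9, 16 positions) sperm stood at 0.145% and 0.388% and CKO paternal aphidicolin at 79.1% and 66.4%. The groups lay far apart, and the highest adjusted p of its tiles was 0.0273 (quasi-binomial test). Oocytes stood at 2.97% and 3.19% there and maternal pronuclei at 0 to 6.95%, while the other paternal pronuclei ranged from 0 to 89.7%. The second region, chr1:193960601-193960900 (15 positions), lies 1172 bases downstream of the matched start of Rcor3, a member of the CoREST family of corepressors. It stood at 0.311% and 0.321% in sperm and 72.5% and 66.3% in CKO paternal aphidicolin (highest adjusted p = 0.0124, quasi-binomial test). Oocytes were methylated there, at 96.6% and 96.5%, and maternal pronuclei stood between 70.6% and 100%. Neither region was called without sperm replicate 1, without sperm replicate 2, without library 1 of CKO paternal aphidicolin or with the dispersion of every covered group.

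Some single called tiles, named here after their values were seen, lay near gene starts and others had no matched start nearby. The lowest adjusted p, 1.14e-07, was at chr13:31707201-31707300, with 0.382% and 0.704% in sperm and 73.6% and 70.0% in CKO paternal aphidicolin at 1363.5 calls per library. The other paternal libraries stood between 57.0% and 75.7% there and the maternal ones between 0 and 10.9%. A tile 132 bases downstream of the start of Ggt7, a member of the gamma-glutamyltransferase family, stood at 0.417% and 0.323% in sperm and at 80.0% and 100% in CKO paternal aphidicolin (adjusted p = 0.000288). A tile 405 bases downstream of the start of Npm3, of the nucleoplasmin family of histone chaperones, read 0 in both sperm libraries and 100% in both CKO paternal aphidicolin libraries (adjusted p = 0.00921). One 853 bases downstream of the start of Smo, the signal transducer of Hedgehog ligands, went from 0 and 0.410% to 47.2% and 68.1% (adjusted p = 0.0443). Maternal pronuclei stood at or below 9.80% in the Npm3 tile and at or below 2.08% in the Smo tile. Of these 4 tiles that on chromosome 13 alone was still called without sperm replicate 1 and without sperm replicate 2. The adjusted p without them (quasi-binomial test) was 0.231 and 0.820 for the Ggt7 tile and 1 for those of Npm3 and Smo, and with the dispersion of every covered group it was 0.0592 for Npm3 and 0.0706 for Smo.

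In 1000-bp tiles 364 of 85925 rose (0.424%) and 1 fell (0.00116%). As a count with no test, both libraries lay at least 25 points above both sperm libraries in 875 tiles (1.02%) and below them in 423 (0.492%). Of the 364, 51 had over 10 times the median depth and in 13 the groups overlapped. The 5 with the largest gap between the groups were at chr2:74537001-74538000, chr6:48692001-48693000, chr11:48605001-48606000, chr11:107674001-107675000 and chr2:27833001-27834000. The first lies 1680 bases downstream of the matched start of Hoxd9, a homeobox gene of the HoxD cluster. It read 0 in both sperm libraries and 100% and 99.3% in CKO paternal aphidicolin over 3 positions (adjusted p = 0.00172). The other paternal pronuclei stood lower, at 7.59% to 40.5%, and the maternal ones at 0 to 6.76%. The other 4 stood at or below 10.4% in sperm and at 91.0% to 100% in CKO paternal aphidicolin. Each of the 5 rests on 2 or 3 positions, and none was called without sperm replicate 1 or without sperm replicate 2. At chr11:48605001-48606000 oocytes stood at 76.0% and 52.4%, and at the other 4 at or below 1.28%. The tile that fell, chr14:43800001-43801000, stood at 82.0% and 82.3% in sperm and at 0 and 37.1% in CKO paternal aphidicolin (adjusted p = 0.00583, quasi-binomial test). It was not called without sperm replicate 1 (adjusted p = 0.911, quasi-binomial test), sperm replicate 2 (0.610) or library 1 (0.974). Without library 2 81 tiles of 1000 bp were called lower and 614 higher, without library 1 5 and 238, and without sperm replicate 1 or 2 the higher count was 24 or 26 and the lower count 0. With the spread of the 4 libraries alone both counts were 0.

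Gene starts could be placed for 5466 genes, and 4545 promoter windows of 300 bp (250 before to 50 after the start) of 4274 genes held at least 2 positions. Almost all were unmethylated in sperm, 4536 of 4545. Their mean was 0.401% and 0.386% in sperm and 1.90% and 1.31% in CKO paternal aphidicolin, a difference of 1.21 points (0.910 to 1.51, exact permutation p = 0.33, 2 against 2). Of the 4545 windows 10, of 9 genes, rose (0.22%) and 0 were called lower, with 80 higher and 0 lower at an unadjusted p under 0.05. Limma on arcsine square roots called 0 in either direction. All 9 genes are named below, a choice made after their values were seen. The 4 windows methylated in sperm, among them that of Acta1, skeletal muscle actin, all stood at 65.5% or above in both CKO paternal aphidicolin libraries.

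Map1b stood at 0 in both sperm libraries, on 864 and 927 calls, which allows a level of up to 0.347% and 0.324%. In CKO paternal aphidicolin it stood at 41.4% and 61.3% over 18 positions (adjusted p = 0.000416, quasi-binomial test). The other paternal pronuclei ranged from 15.0% to 63.7% with a median of 58.6%, and the maternal ones from 0 to 8.40% with a median of 0. Its window overlaps that of Gm26559, a predicted gene on the other strand, which shares some of these positions. The Gm26559 window was not called (adjusted p = 0.0620, quasi-binomial test). Psma5 stood at 0 and 0.699% in sperm and 42.1% and 27.5% in CKO paternal aphidicolin (adjusted p = 0.0430). Its other paternal values lay between 23.0% and 42.9% and its maternal median was 0. Ptger4, at 0 in both sperm libraries on 1035 and 900 calls (up to 0.290% and 0.33%), stood at 40.1% and 26.6% (adjusted p = 0.0125). These 3 promoters were unmethylated in oocytes. In each of them all 8 paternal pronuclear libraries lay above both sperm libraries and above every maternal one.

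Rfx8 showed the other pattern. It stood at 0 in both sperm libraries, at 57.2% and 13.2% in CKO paternal aphidicolin (adjusted p = 0.0228) and at 97.5% and 90.0% in oocytes. Its other paternal values lay between 0 and 79.1%. Library 1, in which tiles methylated in oocytes only stood higher, was also the higher one here, and the part of signal from the other parent was not tested. Gm39000, a predicted gene, had 2 overlapping windows called, and the window with 16 positions stood at 0.770% and 0.539% in sperm and at 70.2% and 65.1% (adjusted p = 0.000161). Its oocytes stood at 100% and 96.4%. The window with 10 positions stood at 0.926% and 0.456% in sperm and at 92.7% and 67.3% in CKO paternal aphidicolin (adjusted p = 0.00150), library 1 again being the higher one. The 6 other paternal libraries stood between 49.5% and 76.2% in the window with 16 positions. In the window with 10 positions they stood between 43.0% and 78.6%. Ankrd9, an ankyrin repeat protein, stood at 0 in sperm and 45.7% and 59.1% in CKO paternal aphidicolin (adjusted p = 0.00231), with a maternal median of 0. A second Ankrd9 window, of 19 positions, stood at 0 in sperm and 43.0% and 37.3% in CKO paternal aphidicolin. It was not called (adjusted p = 0.307, quasi-binomial test). Ggt7 stood at 0.423% and 0.396% in sperm and 100% and 44.4% in CKO paternal aphidicolin (adjusted p = 0.0455), and Ppp4r3a, a regulatory subunit of protein phosphatase 4, at 0.478% and 0.173% against 33.1% and 74.3% (adjusted p = 0.0300). Rnf4, a ubiquitin ligase that binds SUMO, had the smallest gap, from 0.0797% and 0.0920% to 28.1% and 9.49% (adjusted p = 0.0430), and all 6 of its other paternal values were at or above 7.10%. The calls rest on both sperm libraries: 1 window was called without sperm replicate 1 and 0 without sperm replicate 2.

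**Figure D5:**
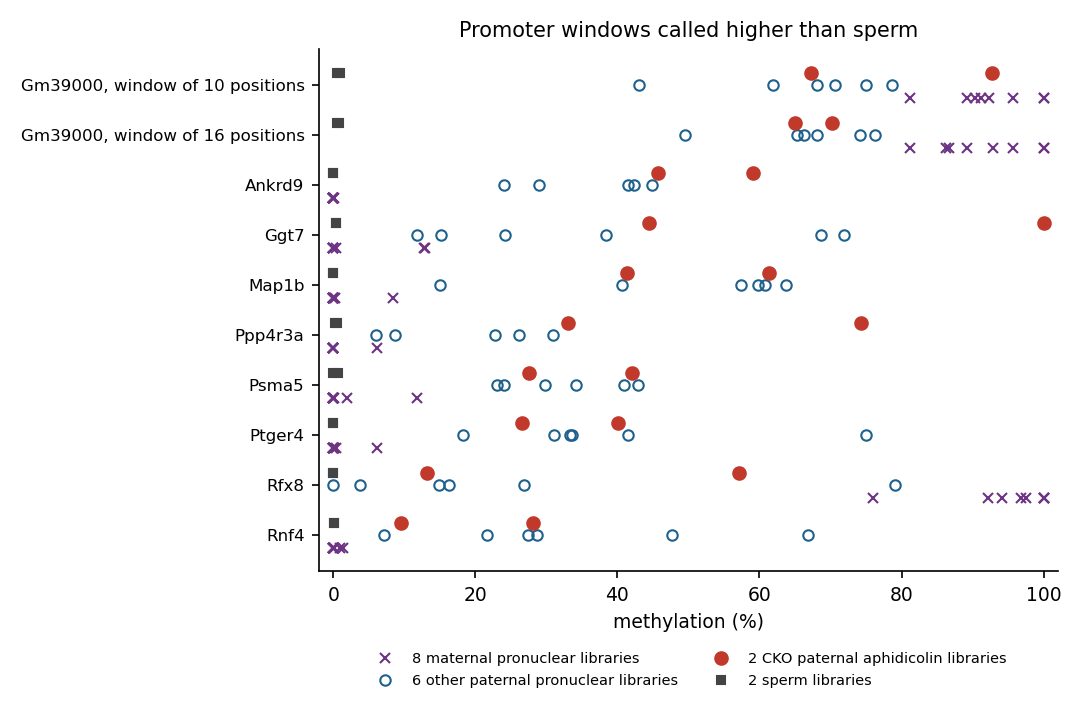
Methylation (%, x axis) of the 10 promoter windows called higher than sperm (y axis, by gene); symbols are single libraries of sperm, CKO paternal aphidicolin, the other paternal pronuclei and the maternal pronuclei with at least 10 calls. In 7 windows the maternal libraries lie at or below 13.0%, and in both Gm39000 windows and Rfx8 they lie at or above 76.0%.

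In 24 windows of 22 genes (0.528%) both libraries stood at least 25 points above both sperm libraries, and in 0 (0%) at least 25 points below. Oocytes were unmethylated in 19 and methylated in 4 of the 24, and methylated in 89 of all 4545 windows (1.96%). The genes with called windows are among the 24, except Rfx8 and Rnf4, and so is Gm26559. The others are Wnt2 and Bmp8a, secreted signalling ligands, Rab23 and Intu, which act in cilia, Lrat, which esterifies retinol, and Dyrk1a, a protein kinase. Also among them are Eea1, of early endosomes, Shisa7, Mtus2, Tmem14c, Lsr and the predicted genes Gm26511, Gm36360 and Gm31194. No window of these other genes passed the test. Shisa7 had the largest gap, from 1.09% and 0 in sperm to 68.8% and 82.4% in CKO paternal aphidicolin (adjusted p = 0.632, quasi-binomial test). The 4 windows methylated in oocytes are those of Shisa7, Mtus2 and Gm39000, which has 2. Wnt2 stood at 0.146% and 0.152% in sperm and 44.9% and 29.0% in CKO paternal aphidicolin (adjusted p = 0.176). Bmp8a stood at 0.175% and 0.630% and at 42.9% and 27.9% (adjusted p = 0.355). Families picked by symbol after the values were seen gave few such windows. Of 19 windows of Wnt, Bmp, Fgf, Fzd, Notch, Dll and Jag genes these 2 stood so, of 16 proteasome windows that of Psma5, and of 28 ribosomal protein, 78 Zfp and 47 windows of Hox, Pax, Sox and other developmental factor families 0. The median difference of each family was between -0.129 and 0 points, and that of all windows -0.0630.

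Over all 638611 positions the mean was 29.85% ± 0.00723 in sperm and 30.38% ± 0.366 in CKO paternal aphidicolin (SD, n = 2 each). The difference was 0.530 points (0.266 to 0.794, exact permutation p = 0.33, 2 against 2). Weighted by reads the libraries stood at 27.6% and 28.6% in sperm and 31.0% and 35.2% in CKO paternal aphidicolin, a difference of 5.03 points. The 7315 tiles partly methylated in sperm stood at 50.0% ± 0.481 and 50.6% ± 0.708 (SD, n = 2 each), and the groups overlapped (-0.308 to 1.37 points, exact permutation p = 0.667, 2 against 2).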

How the data were processed

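The submitters' processing notes name Trim Galore, Bismark 0.10.1 and mm9; other steps are not stated there. Each of the 20 deposited files gives, per position, the percent methylation and the counts of methylated and unmethylated calls, as the authors made them; percent was recomputed from the counts.

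Positions read 5 or more times in each of the 4 libraries were kept. A tile's level was its methylated calls over all its calls, and means over positions or tiles weighted each equally. A tile was called methylated at 75% or more in both libraries of a gamete and unmethylated at 25% or less. Group means were compared by exact permutation of 4 libraries (6 arrangements). Tile counts were fitted with a quasi-binomial model, the dispersion coming from the 5 paternal groups and moderated with limma 3.58.1 (R 4.3.3), which was tested on simulated data. P-values were adjusted by Benjamini-Hochberg.

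RefSeq promoters (GRCm38.p6) were placed by CpG spacing, since no mm9 annotation was used here: 6033 of 32851 matched 1 place, 5992 of them (99.3%) on the right chromosome, and 5989 were kept. Reversed patterns matched 126 times, 11 on the right chromosome. This step was added after the files were seen.

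Regions were named where 2 or more called tiles lay under 500 bp apart, at no more than 10 times the median depth and with no overlap between the groups, ranked by their smallest difference between libraries, up to 8 in each direction. Of 1000-bp tiles the first 5 by the same rank were named. Members and lists were chosen with earlier results of these data known. The alternatives included other read minimums, dispersions and tests, leaving out each library, and a block on replicate number.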

Additional observations from a re-analysis of the deposited data

Results flagged for a closer look

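In the 3712 tiles methylated in both gametes that were covered in all 10 paternal libraries, both CKO paternal aphidicolin libraries stood above both sperm libraries while both libraries of each other paternal pronuclear group stood below them. CKO paternal aphidicolin stood higher by 2.61 points than WT paternal aphidicolin, by 27.6 points than CKO paternal mock and by 42.3 points than WT paternal mock. For each of them the exact permutation test (two-sided, 2 libraries against 2) gave p = 0.33, its lower limit, and the comparisons share the sperm libraries. Over all 15147 tiles of the class CKO paternal aphidicolin and sperm overlapped, with a difference of -0.0988 points. On the 5803 tiles of 1000 bp covered in the same way, library 1 stood below both sperm libraries.

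Chromosome X was outside the comparison and took 1.37% and 1.43% of the calls of the CKO paternal aphidicolin libraries, above 1.07% in each sperm library. Maternal pronuclei lay between 1.97% and 2.24% and the other paternal pronuclei between 0.483% and 1.61%.

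Mitochondrial positions took 3.27% and 4.11% of the calls, against 0.00213% and 0.00260% in sperm, 19.4% and 20.0% in oocytes and 1.16% to 4.19% in the other paternal pronuclei.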

How the results depend on the processing

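No mean difference changed sign under the alternatives tried. Tiles methylated in both gametes had a difference of -0.0988 points, but on the 3712 covered in all paternal libraries CKO paternal aphidicolin stood at 96.6% and sperm at 96.5%. Counts of called tiles moved most under limma on arcsine square roots. Of 143 alternative values for the main results 112 stayed within their limits, 31 moved and 0 reversed. For means the limit was the SD between libraries, both groups combined. Leaving out 1 CKO paternal aphidicolin library moves a mean by less than this SD, so such values could not count as moved. In tiles methylated in sperm only the difference was -3.82 points. It became -0.365 points without library 1 and -7.28 points without library 2, and both counted as within the limits. The mean over all positions moved from 0.530 to 5.03 points when weighted by reads. Called higher among 100-bp tiles were 42, and 0 with the 4 libraries alone, 16 with the dispersion of every covered group, 990 by limma on arcsine square roots and 2 to 147 leaving out 1 library. Called lower were 0, with 638 by arcsine and 0 to 6 leaving out 1 library. Of 1000-bp tiles 364 were higher, against 0 with the 4 libraries alone, 61 with every covered group, 1277 by arcsine and 24 to 614 leaving out 1 library. The 1 lower tile became 0 with the 4 libraries alone, 0 with every covered group, 683 by arcsine, 3 with at least 4 positions and 0 to 81 leaving out 1 library. Promoter windows called higher went from 10 to 17 with every covered group, 0 by arcsine and 0 to 14 leaving out 1 library. The cause of these differences was not tested.

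With the replicate number as a block, 0 tiles of 100 bp and 0 promoter windows were called higher, and of 1000-bp tiles 12 were called lower and 417 higher. The libraries share only a number: deviations of same-numbered libraries had r = -0.00271 across 36717 tiles, which are not independent replicates. Of 902 alternative values for named tiles and windows 552 kept their side of the threshold, 346 lost it, 4 gained it and 0 reversed. Promoter windows, the classes by both gametes and the tiles read in other libraries were tried under alternatives chosen after seeing the data.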
